A study of Mus musculus with 4 samples.

Results

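The genes described here are 31 genes of the endoplasmic reticulum (ER) stress response and of the secretory chaperone machinery, out of 26736 genes named on the array. They were chosen by name, with earlier results of these data known, and matched exactly to the gene name given for each probe. They were covered by 56 probes, and 14 of the 31 genes had several probes. Total RNA of IMS/N cells was hybridised on 4 Agilent mouse arrays in 1 colour, with 1 array in each of 4 groups. IMS/N is a single line of hepatic stellate cells, the collagen-producing cells of the liver, isolated from normal 129/Sv mice and immortalised with SV40 virus. The groups were untreated cells, cells with recombinant murine IL17A (an inflammatory cytokine), cells with medium conditioned by ADSCs (adipose tissue-derived stem cells), and cells with both. The ADSCs came from inguinal subcutaneous fat of male C57BL/6J mice aged 8 to 10 weeks, and all 4 groups share the immortalised host line. Doses and exposure times are not given in the sources used here.

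Proteins that enter the secretory pathway fold in the ER with the help of chaperones such as BiP (Hspa5) and GRP94 (Hsp90b1), lectin chaperones that hold glycoproteins, and protein disulfide isomerases. When unfolded proteins build up, the sensors IRE1 (Ern1), PERK (Eif2ak3) and ATF6 (Atf6) switch on the unfolded protein response, in which XBP1, ATF6 and ATF4 induce chaperone, degradation and amino acid genes. Stellate cells make large amounts of procollagen, a major client of this machinery.

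Chaperone genes are induced through the ER stress response element, ERSE, which reads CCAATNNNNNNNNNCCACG (CCAAT, any 9 bases, CCACG), and ATF4 targets through the CEBP-ATF response element, whose core was searched as TGATGNAA. Both were searched on both strands from 250 bases before to 50 bases after the annotated start site in RefSeq promoters of GRCm38.p6, where 28 of the 31 genes had an entry. An ERSE was found in 9 of these 28 genes (Calr, Canx, Creld2, Derl3, Dnajc3, Hsp90b1, Hspa5, Pdia6 and Syvn1), or 32.1%, against 0.119% of all 32851 promoters. The shorter ERSE-II, ATTGGNCCACG, was present in Dnajb11 and Herpud1, and in 0.0365% of all promoters. Together 11 of the 28 genes (39.3%) carried one or the other form, against 0.155% of all promoters. The CEBP-ATF core was present in Asns, Chac1, Herpud1 and Trib3, and in 3.97% of all promoters. The XBP1-type element UPRE, TGACGTGG, was present in 0 of 28 genes and in 0.676% of all promoters. A match is a description of the letters in this window and was not tested as a binding site.

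**Figure D1:**
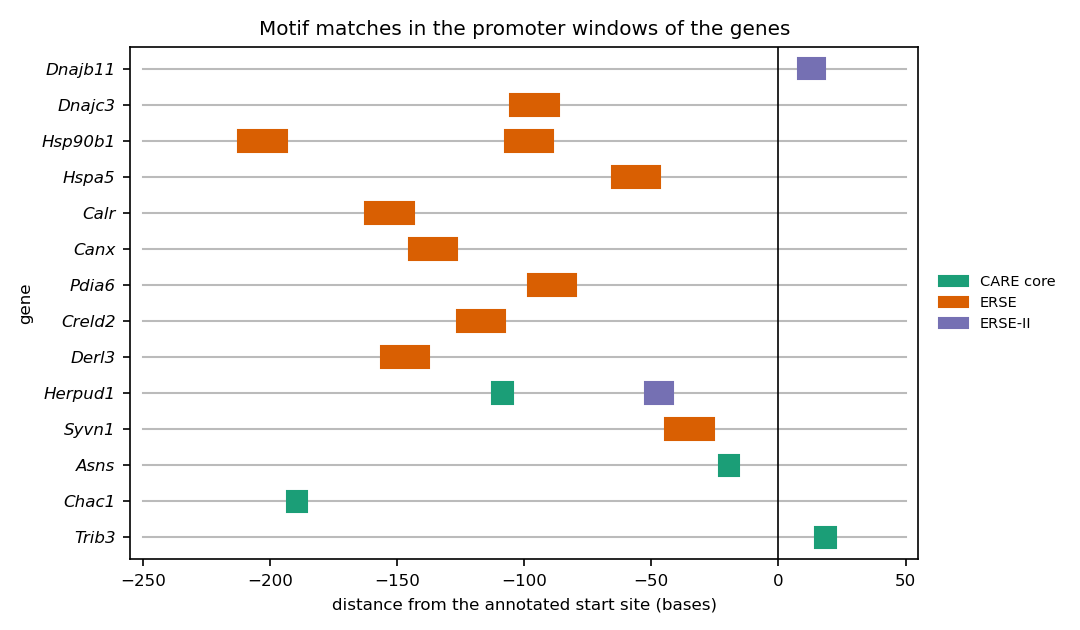
Matches to ERSE, ERSE-II and the CEBP-ATF core (CARE core) in the promoter windows of the 14 genes that hold any, by distance from the annotated start site in bases (0, black line). All ERSE matches lie before the start site, and the matches of Dnajb11 and Trib3 lie after it.

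The 250 bases before the start site are printed for 6 genes, 5′ to 3′ on the strand of the gene, with the fixed letters of each match in capitals. Hspa5 is shown as the best known ERSE gene, Herpud1, Dnajc3 and Pdia6 as the ERSE or ERSE-II genes with the largest differences between arrays, Derl3 as an ERSE gene without signal in these cells, and Chac1 as the gene with the largest difference of all 31.
Hspa5 (chr2:34771840-34772089, forward strand, GRCm38.p6): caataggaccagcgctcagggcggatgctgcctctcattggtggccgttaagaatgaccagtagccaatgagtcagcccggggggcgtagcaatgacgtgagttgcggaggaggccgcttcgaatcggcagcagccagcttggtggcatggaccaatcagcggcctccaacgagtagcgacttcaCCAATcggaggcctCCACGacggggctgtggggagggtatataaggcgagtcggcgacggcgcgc
Herpud1 (chr8:94386179-94386428, forward strand, GRCm38.p6): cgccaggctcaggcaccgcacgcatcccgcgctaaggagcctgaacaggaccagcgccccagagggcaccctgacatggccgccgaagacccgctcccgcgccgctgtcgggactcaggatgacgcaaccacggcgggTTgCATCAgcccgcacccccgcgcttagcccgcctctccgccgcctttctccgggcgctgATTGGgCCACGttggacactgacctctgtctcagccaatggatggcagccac
Dnajc3 (chr14:118937682-118937931, forward strand, GRCm38.p6): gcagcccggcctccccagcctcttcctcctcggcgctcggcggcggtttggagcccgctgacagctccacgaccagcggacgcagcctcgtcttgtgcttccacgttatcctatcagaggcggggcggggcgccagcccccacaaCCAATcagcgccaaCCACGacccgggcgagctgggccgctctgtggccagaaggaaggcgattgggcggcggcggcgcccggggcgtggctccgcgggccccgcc
Pdia6 (chr12:17266339-17266588, forward strand, GRCm38.p6): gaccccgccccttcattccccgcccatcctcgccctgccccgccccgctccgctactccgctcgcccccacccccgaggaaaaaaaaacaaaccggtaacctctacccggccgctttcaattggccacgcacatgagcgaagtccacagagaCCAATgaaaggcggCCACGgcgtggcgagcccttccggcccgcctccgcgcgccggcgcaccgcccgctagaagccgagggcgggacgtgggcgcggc
Derl3 (chr10:75893148-75893397, forward strand, GRCm38.p6): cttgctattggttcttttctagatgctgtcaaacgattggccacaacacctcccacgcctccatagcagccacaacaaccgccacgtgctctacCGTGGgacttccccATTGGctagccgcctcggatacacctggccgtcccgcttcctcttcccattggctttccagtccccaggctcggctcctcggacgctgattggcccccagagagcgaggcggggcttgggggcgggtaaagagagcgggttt
Chac1 (chr2:119350992-119351241, forward strand, GRCm38.p6): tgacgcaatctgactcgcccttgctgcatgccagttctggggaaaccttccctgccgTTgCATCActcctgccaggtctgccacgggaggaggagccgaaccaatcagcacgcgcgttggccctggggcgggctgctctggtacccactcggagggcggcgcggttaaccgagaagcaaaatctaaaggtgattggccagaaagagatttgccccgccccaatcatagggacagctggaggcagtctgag
Counted from the start site, the Hspa5 match lies at −65 to −47 and the ERSE-II of Herpud1 at −52 to −42. The CEBP-ATF core in Chac1 lies on the other strand, at −193 to −186.

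Levels are log2 processed signals after quantile normalization over the 4 arrays, and a difference of 1 is 2-fold. Between 58.1% and 60.5% of 43379 spots per array were well above background, and 0 spots were saturated. No test was run, since each group holds 1 array, so each difference is set against the technical SD of a difference between arrays, taken from replicate spots of the same probe: 0.06 at levels of 7 and above, 0.12 from 5 to 7 and 0.26 below 5. This SD holds no spread between cultures. Different probes of the same gene disagreed more: their differences had a pooled SD of 0.17 to 0.23 over the 13 genes with several measured probes, depending on the comparison. All probes of a gene went the same way in 7 of these 13 genes for IL17A, for medium and for both agents, each against untreated. They did so in 5 of 13 for IL17A with medium on both arrays, and in 4 of 13 for medium added to IL17A. Slide 1 held the arrays without ADSC medium and slide 2 those with it, so a difference with medium cannot be told apart from one between slides. In bulk RNA, fewer cells of a type and less RNA per cell cannot be told apart either.

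The IL17A label was checked on Cxcl1, a chemokine gene induced by IL17A, which stood at log2 levels of 9.76 untreated, 15.02 with IL17A, 9.08 with medium and 14.46 with both. Il6 stood at 5.04, 11.80, 4.99 and 10.47 in the same order. Of 13 stellate cell markers, 6 were well above background on all 4 arrays (Acta2, Col1a1, Col1a2, Lhx2, Pdgfrb and Vim). Gfap, Reln, Rgs5 and Hand2 were not well above background on any array. Stellate cell markers also moved. With IL17A against untreated, all 6 measured on both arrays were below 0, with a median of −0.45. With both agents against untreated, 5 of 7 were below 0, with a median of −0.54. Col1a1, Col1a2 and Pdgfrb were more than 2-fold lower, 3 of 9 tested, against 4.28% of all genes. Des and Lhx2 were above 0, Lhx2 at 7.56 untreated and 8.19 with both. Lrat, well above background with both agents only, was the 1 marker called 2-fold higher, against 3.39% of all genes. Col1a1 stood at 15.03 untreated, 14.14 with IL17A, 14.36 with medium and 13.95 with both, and Col1a2 at 14.77, 13.87, 14.01 and 13.29.

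The 5 hepatocyte markers on the array, Alb among them, were not well above background on any array. Of 4 cholangiocyte markers, Epcam was not well above background and 3 were on all arrays. Krt19 stood at 9.38 untreated, 7.99 with IL17A, 9.36 with medium and 7.14 with both, and Krt7 at 5.25, 4.65, 4.95 and 4.46, while Sox9 stood at 8.32, 8.15, 8.81 and 8.79. The log2 of their summed signal was 10.00, 9.15, 10.15 and 9.25 in the same order. Of 6 Kupffer cell and leukocyte markers, 3 were well above background on all arrays, while Adgre1 and Clec4f were on none. Csf1r stood at 3.15, 4.56, 3.35 and 4.29, Cd68 at 5.82, 5.91, 6.46 and 6.41, and Lyz2 at 3.66, 3.24, 4.12 and 3.95. With IL17A, Csf1r was thus higher and Lyz2 lower, both with and without medium. Among these markers, Ptprc was well above background with both agents only. The log2 of their summed signal was 6.35, 6.60, 6.90 and 7.09. Of 5 endothelial cell markers, Kdr and Stab2 were well above background on all arrays and Pecam1, Cdh5 and Lyve1 on none, and the log2 of the summed signal was 5.07, 4.88, 5.08 and 4.71. The part of all these markers in the results was not tested.

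The secretory chaperones were well measured and differed little between the 4 arrays. Of the 31 genes, 29 were well above background on all 4 arrays, and 30 had a mean log2 level of 7 or above. None of the 29 genes measured on both arrays was 2-fold higher or 2-fold lower with IL17A than untreated, against 2.17% and 2.29% of all genes tested. In a list of this size, finding none is near what these shares would give. The shares also include dimmer genes, and a 2-fold share for genes at levels of 7 and above was not computed. The same limits apply to the 2-fold counts of these genes in the other comparisons. Chac1 was the only one of the 31 genes past 2-fold in any of the 5 comparisons, and it was lower with IL17A plus medium than untreated.

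**Figure D2:**
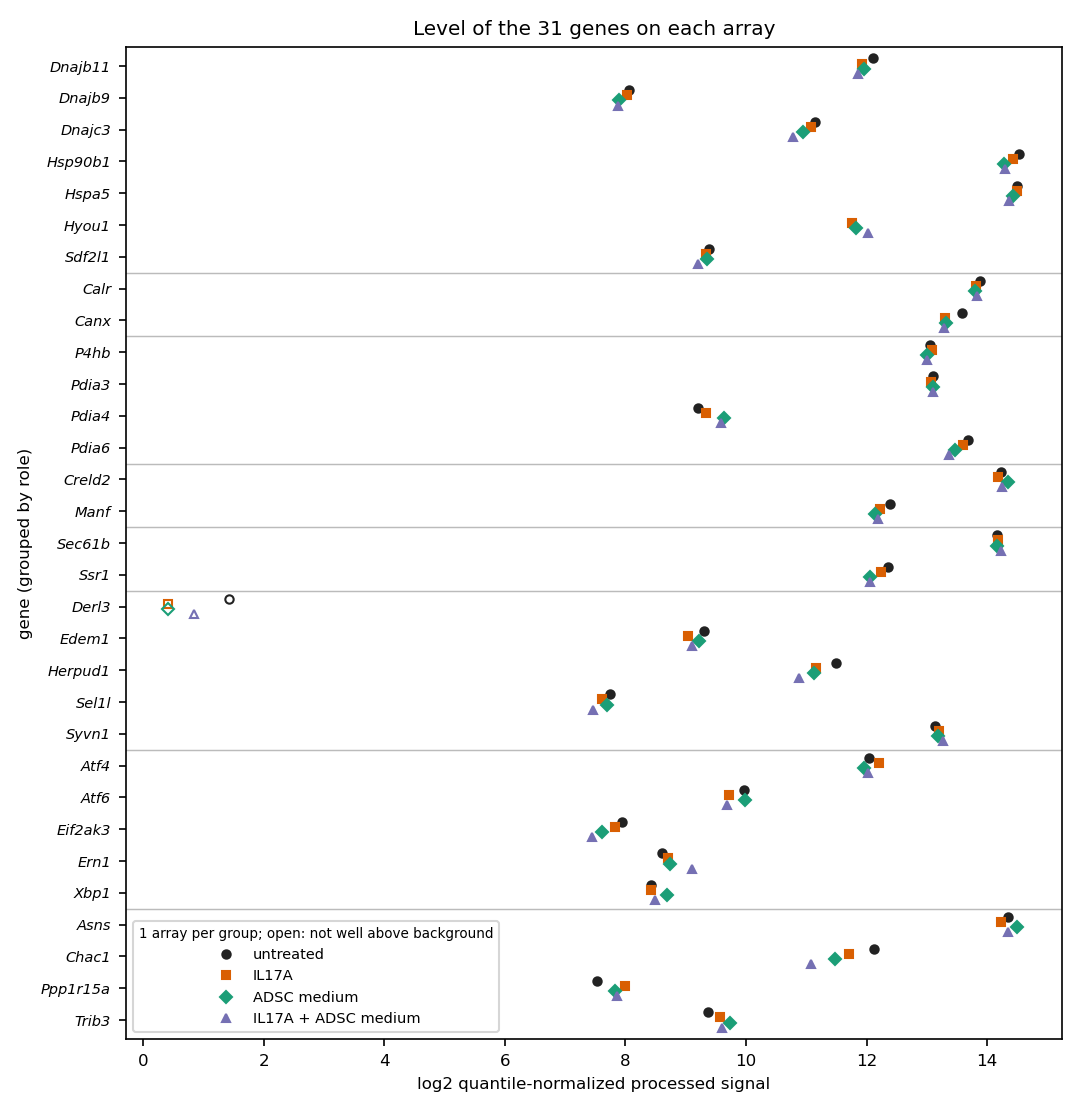
Log2 quantile-normalized signal (x axis) of each of the 31 genes (y axis, grouped by role) on the 4 arrays, 1 point per array, with open symbols where the probe was not well above background. The 4 points of most genes lie close together, Chac1 spreads from 11.07 to 12.13, and Derl3 has open symbols only.

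In the lumenal HSP70 and HSP90 system, Hspa5, the main HSP70 chaperone of the ER, stood at 14.49 untreated, 14.49 with IL17A, 14.42 with medium and 14.35 with both. Its 4 values lay within 0.14, and the IL17A difference of 0.00 without medium was smaller than 1 technical SD. Hsp90b1, the HSP90 of the ER, stood at 14.54, 14.43, 14.28 and 14.30 in the same order, so that both arrays with medium were below both arrays without it. Its second probe gave a medium difference of −0.66 where the main probe gave −0.25. The probe for Dnajc3, a BiP co-chaperone that also restrains PERK, read 11.15, 11.08, 10.94 and 10.77. With both agents it was 0.37 lower than untreated, and its 4 probes gave −0.37, −0.58, −0.79 and −0.08, all below 0 but of unequal size. Dnajb9, a BiP co-chaperone induced through XBP1, stood at 8.06, 8.03, 7.90 and 7.87. Dnajb11 stood at 12.11, 11.93, 11.96 and 11.86, and Sdf2l1, its partner protein, at 9.39, 9.34, 9.36 and 9.21. On their main probes, all 6 genes of this group with an untreated value were lower with both agents than untreated, by 0.14 to 0.37. In the same comparison the second Hsp90b1 probe gave −0.76 and a further Dnajb9 probe 0.00. That Dnajb9 probe gave 0.37 for IL17A against untreated, where the main probe gave −0.03. Hyou1, the nucleotide exchange factor of BiP, had no untreated value because its spot was marked as an outlier there, and stood at 11.76 with IL17A, 11.83 with medium and 12.03 with both. It was thus 0.20 higher with both than with medium alone.

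Among the lectin chaperones, Canx, which holds glycoproteins at the ER membrane, stood at 13.58 untreated, 13.31 with IL17A, 13.32 with medium and 13.28 with both. The untreated array was above the other 3, but a further Canx probe gave an IL17A difference of 0.07 where the main probe gave −0.28. Calr, its soluble counterpart, stood at 13.87, 13.82, 13.80 and 13.84, and lay within about 1 technical SD in each comparison on this probe. A second Calr probe gave −0.37 for both agents against untreated, where the main probe gave −0.04.

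The disulfide isomerases were split. P4hb, which is also a subunit of collagen prolyl 4-hydroxylase, stood at 13.05 untreated, 13.09 with IL17A, 13.00 with medium and 13.00 with both. Pdia3, the isomerase that works with the lectin chaperones, stood at 13.09, 13.06, 13.11 and 13.10. The 4 values of either gene lay close together. Pdia4 stood at 9.20, 9.33, 9.64 and 9.58, with both arrays with medium above both without, by 0.44 over untreated and 0.25 over IL17A. Pdia6 went the other way, at 13.69, 13.59, 13.47 and 13.36. For Pdia6, 1 of its 4 probes gave a difference of 0.02 for both agents against untreated, where the main probe gave −0.33.

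The small stress-induced lumenal proteins and the translocon showed small differences. Creld2 stood at 14.23 untreated, 14.18 with IL17A, 14.35 with medium and 14.24 with both. Manf, a secreted protein retained by BiP, stood at 12.39, 12.22, 12.14 and 12.18, with the untreated array highest. Sec61b, a subunit of the channel through which new chains enter the ER, stood at 14.17, 14.19, 14.17 and 14.23. Ssr1, a subunit of the translocon-associated complex, stood at 12.35, 12.24, 12.05 and 12.06. Its 5 probes did not go the same way, with differences of −0.29 to 0.37 for both agents against untreated.

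In ER-associated degradation, Herpud1, which anchors the degradation complex in the membrane, stood at 11.50 untreated, 11.16 with IL17A, 11.13 with medium and 10.88 with both. The untreated array was highest and the array with both agents lowest. The difference between these 2 arrays was −0.62, or 1.54-fold, and the IL17A difference was −0.34 without and −0.26 with medium. Edem1, which recognises trimmed glycoproteins, stood at 9.30, 9.05, 9.23 and 9.11, lower with IL17A in each pair of arrays on this probe. Sel1l, the adaptor of the ubiquitin ligase, stood at 7.74, 7.61, 7.69 and 7.47, and Syvn1, the ligase HRD1 itself, at 13.14, 13.20, 13.18 and 13.26. Syvn1 was the one measured gene of this group without a negative difference in these comparisons on its main probe. Derl3 was not well above background on any array and has no difference, although its promoter carries an ERSE.

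Of the sensors, Ern1 stood at 8.61 untreated, 8.70 with IL17A, 8.74 with medium and 9.10 with both. Only the array with both agents stood apart, 0.49 above untreated and 0.37 above medium alone. Eif2ak3 went the other way, at 7.95, 7.83, 7.61 and 7.45, so that both arrays with medium were below both without. The second Eif2ak3 probe gave 0.01 for both agents against untreated, where the main probe gave −0.50. Atf6 stood at 9.97, 9.72, 9.98 and 9.69, and was lower with IL17A by 0.26 without medium and 0.28 with it. Its second probe gave −0.28 and −0.30 for the same differences, so both probes went the same way in both pairs of arrays. Of the transcription factors downstream of IRE1 and PERK, Xbp1 stood at 8.42, 8.43, 8.69 and 8.49, and Atf4 at 12.05, 12.20, 11.96 and 12.02. XBP1 is activated by splicing and ATF4 by translation, which total transcript level does not show.

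The outputs of the integrated stress response, the branch that runs from PERK through ATF4, went different ways. Chac1, a glutathione-degrading enzyme induced by ATF4, stood at 12.13 untreated, 11.70 with IL17A, 11.48 with medium and 11.07 with both. The level was lower with each agent, whether or not the other was present. IL17A differed by −0.43 without medium and −0.41 with it, and the medium by −0.65 without IL17A and −0.63 with it. The array with both agents was 2.08-fold below untreated (−1.06), further than all but 4.71% of genes by size. Chac1 has a single probe, at chr2:119179990-119180049 on mm9, so its differences have no second probe to set them against. With normexp background correction the same difference was −0.82 and no longer 2-fold.

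Ppp1r15a, the phosphatase subunit GADD34 that reverses the PERK signal, stood at 7.53 untreated, 8.00 with IL17A, 7.82 with medium and 7.87 with both. The untreated array was the lowest, and IL17A differed by 0.46 without medium but by 0.05 with it. The difference between these differences, −0.42, was the largest in size among the 29 genes. Trib3, a pseudokinase that feeds back on ATF4, stood at 9.37, 9.56, 9.73 and 9.60. Asns, the asparagine synthetase, stood at 14.34, 14.23, 14.49 and 14.34, within 0.26 in all. Ddit3, the stress factor CHOP, is not among the 31 genes but belongs to the list of ATF4-linked genes described below. Its level was looked up after these values were seen. It stood at 10.01, 9.86, 9.54 and 9.58, so that both arrays with medium were below both without.

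**Figure D3:**
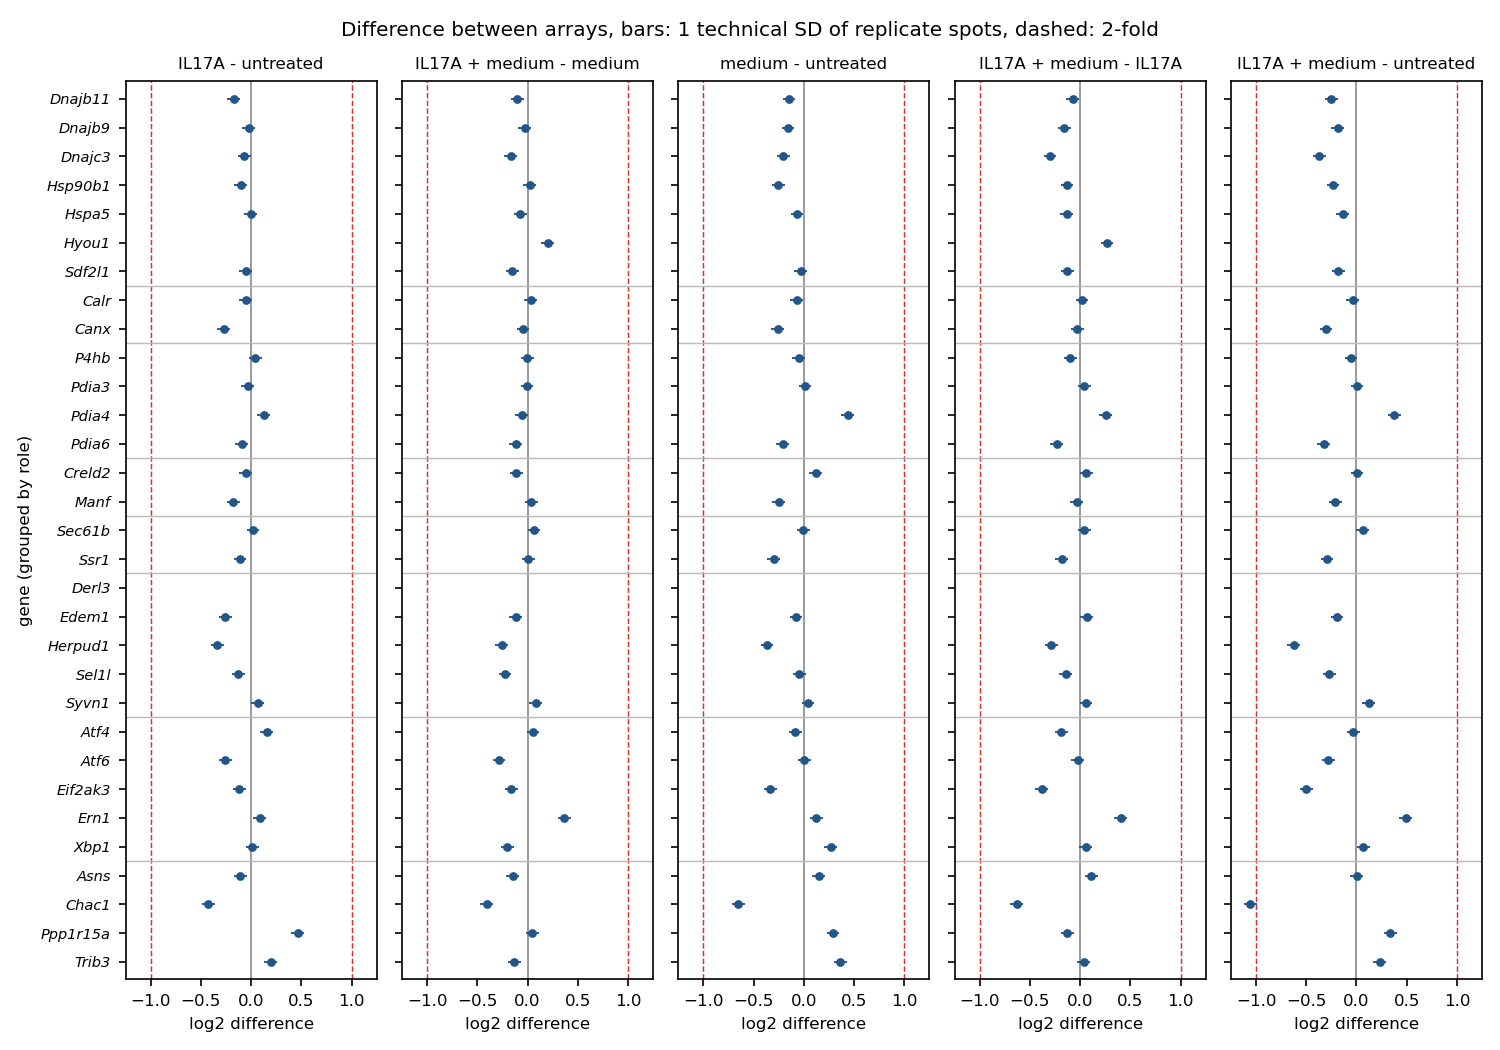
Log2 difference between arrays (x axis) of each gene (y axis, grouped by role) in the 5 comparisons, with bars of 1 technical SD from replicate spots and dashed lines at 2-fold. All points but Chac1 with both agents against untreated (−1.06) lie between the dashed lines.

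Over all 31 genes, IL17A without medium gave a median difference of −0.06 over 29 genes, with 20 of 29 below 0, against a median of 0.00 over all genes and 49.2% of them below 0. Differences ran from −0.43 (Chac1) to 0.46 (Ppp1r15a). At 1.5-fold, 0 of 29 genes differed, against 12.2% of all genes and 5.51% of genes at a mean level of 7 and above. The latter share is the closer background, since 30 of the 31 genes lie at such levels. The IL17A difference on the other slide, with medium on both arrays, had a median of −0.06 over 30 genes, with 20 of 30 below 0, against −0.03 and 57.1% over all genes. None of the 30 genes was 2-fold higher or lower, against 2.86% and 1.82% of all genes, and 0 of 30 passed 1.5-fold, against 13.5% of all genes and 3.76% at levels of 7 and above. Differences ran from −0.41 (Chac1) to 0.37 (Ern1). These values use the brightest probe of each gene, and a dimmer Eif2ak3 probe gave 0.61, past 1.5-fold.

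These 2 IL17A differences share no array. Over the 29 genes measured on all 4 arrays they correlated at r = 0.56 (Spearman's rho 0.53), against 0.43 (0.30) over 14484 genes, which were normalized together. Both differences were below 0 for 16 of the 29 genes (55.2%), against 34.5% of all genes, and both were above 0 for 5. These backgrounds include dimmer genes with a larger technical SD, while the 29 genes lie at levels of 7 and above. The like figures for all genes at such levels were not computed. Chac1, Herpud1 and Atf6 were the lowest on both axes together. The median difference of differences over the 29 genes was −0.02, against −0.03 over all genes.

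**Figure D4:**
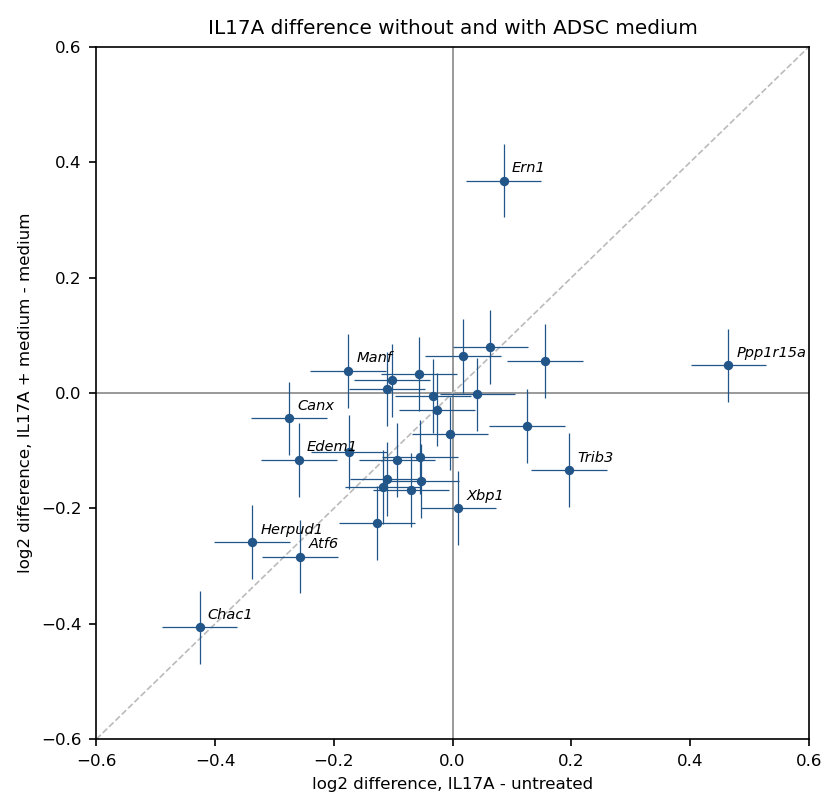
Log2 difference of IL17A against untreated (x axis) and of IL17A plus medium against medium alone (y axis) for the 29 genes measured on all 4 arrays, with bars of 1 technical SD and a dashed line of equal differences. Chac1 lies near the line at −0.43 and −0.41, and Ppp1r15a (0.46 and 0.05) and Ern1 (0.09 and 0.37) lie off it.

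The medium without IL17A gave a median of −0.07 over 29 genes, with 19 of 29 below 0, against 0.04 and 43.6% over all genes. It shares the untreated array with the first IL17A comparison and sets slide 2 against slide 1. None of the 29 genes was 2-fold higher or lower, against 2.45% and 2.97% of all genes. At 1.5-fold, 1 of 29 differed (Chac1, 1.57-fold lower), against 15.2% of all genes and 6.27% at levels of 7 and above. This count uses the brightest probe of each gene. Dimmer probes of Hsp90b1 (−0.66), Trib3 (0.66) and Eif2ak3 (−0.60) also passed 1.5-fold. With IL17A on both arrays, the medium gave a median of −0.05 over 30 genes, with 18 of 30 below 0, against 0.02 and 47.5%. None was 2-fold higher or lower, against 3.21% and 3.11%, and 1 of 30 passed 1.5-fold (Chac1 again, 1.55-fold lower), against 17.9% of all genes and 8.08% at levels of 7 and above. The dimmer Hsp90b1 probe also passed 1.5-fold here (−0.63).

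Both agents together against untreated cells gave the largest shift, a median of −0.18 over 29 genes, with 19 of 29 below 0, against 0.03 and 46.6% over all genes. None of the 29 genes was 2-fold higher, against 3.39% of all genes, and 1 was 2-fold lower, against 4.28%. At 1.5-fold, 2 of 29 differed, Chac1 and Herpud1, both lower, against 19.7% of all genes and 10.5% at levels of 7 and above. These counts use the brightest probe of each gene. Dimmer probes of Hsp90b1 (−0.76) and Dnajc3 (−0.79) also passed 1.5-fold. The 10 measured genes with an ERSE or ERSE-II had a median of −0.24 in this comparison, with 8 of 10 below 0, and those outside the 31 genes, looked up after the data were seen, had a median of 0.06, with 5 of 15 below 0. With medium alone against untreated the medians were −0.18, with 8 of 10 below 0, and 0.11, with 2 of 15 below 0. With IL17A alone they were −0.08, with 9 of 10 below 0, and −0.02, with 8 of 15 below 0. For medium alone and IL17A alone, the shares of all genes below 0 were 43.6% and 49.2%. Genes among the 31 without either element were not summarised apart, so a link to the element was not tested.

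The balance of higher and lower calls over all genes depended on the processing. Between quantile normalization and scaling to the 75th percentile, the larger side stayed the larger in all 5 comparisons, but other settings reversed it. Among genes past 2-fold, 345 were higher and 363 lower with IL17A than untreated under quantile normalization, and 263 and 534 under scaling to the 75th percentile. With medium on both arrays the split was 460 and 293, and 726 and 172 under the other scaling. For the medium alone it was 394 and 478, against 269 and 654, and for the medium added to IL17A it was 511 and 494, against 775 and 372. For both agents against untreated it was 550 and 696, against 543 and 664. With normexp background correction, the split was 97 and 66 for IL17A against untreated, and 73 and 122 for medium added to IL17A. With the mean of a gene's probes these were 397 and 324, and 465 and 533. With RefSeq probes only, the larger side changed in every comparison but that of both agents with untreated. The median of the 31 genes stayed below 0 in all 5 comparisons under both scalings.

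Other genes of the pathway were taken from 5 lists chosen by function. Among 25 other folding genes, IL17A without medium gave a median of −0.11, with 18 of 24 below 0, against 49.2% of all genes, and with medium −0.07, with 21 of 25 below 0, against 57.1%. None was 2-fold higher or lower with IL17A, against 2.17% and 2.29% of all genes without medium and 2.86% and 1.82% with it. The medium went the other way in this list, with a median of 0.06 against untreated (10 of 24 below 0, against 43.6% of all genes) and 0.11 when added to IL17A (9 of 25, against 47.5%). Both agents against untreated gave 0.01, with 11 of 24 below 0, against 46.6%. The lowest was Pdia5, an isomerase, at 10.30 untreated and 9.81 with IL17A, and the highest was Ero1l, the oxidase that recharges the isomerases, at 9.06 and 9.35. In the comparison of medium with untreated, 1 of 25 folding genes was 2-fold higher, against 2.45% of all genes. It was Cdnf, a paralogue of Manf, at least 2.23-fold higher with medium and not well above background on the untreated array. None of 18 other degradation genes and none of 28 translocon, signal peptidase and oligosaccharyl transferase genes was 2-fold or 1.5-fold higher or lower in any of the 5 comparisons. The shares of all genes were 1.82% to 4.28% in each direction at 2-fold. At 1.5-fold in either direction they were 12.2% to 19.7%, and 3.76% to 10.5% at levels of 7 and above. At 2-fold a count of 0 in lists of this size is therefore near the background. Sec63, a translocon subunit, had the lowest IL17A difference of the second list, at 11.29 untreated and 10.87 with IL17A. Of 26 genes of ER exit, retrieval and the CREB3 family, Creb3l1, a membrane-bound factor of secretory cells, was the one past 1.5-fold. At most 1 of 26 thus passed in a comparison, against 12.2% to 19.7% of all genes. The Creb3l1 level was 6.15 untreated, 6.41 with IL17A, 6.22 with medium and 7.12 with both.

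The list of 37 genes linked to ATF4 and the integrated stress response had a median of −0.01 with IL17A against untreated. In that comparison 5 of 36 genes passed 1.5-fold, all higher, against 12.2% of all genes in either direction and 5.51% at levels of 7 and above. In the higher direction alone, 904 of 15874 genes passed. How many genes of this list lie at levels of 7 and above was not counted. With medium on both arrays 3 of 35 passed, against 13.5% of all genes and 3.76% at levels of 7 and above. For the medium against untreated 3 of 36 passed (15.2% of all genes, 6.27% at levels of 7 and above). For the medium added to IL17A 3 of 36 passed (17.9% and 8.08%), and for both agents against untreated 5 of 36 (19.7% and 10.5%). Atf3, a stress-induced repressor, stood at 7.50 untreated, 8.84 with IL17A, 7.58 with medium and 8.08 with both, a 2.53-fold difference with IL17A alone. The other 4 were Cebpb (1.89-fold), Cth (1.78-fold), Slc7a11 (1.75-fold) and Stc2 (1.91-fold). With medium on both arrays, Slc7a11, the cystine transporter, was 1.72-fold higher with IL17A and Cebpb 1.68-fold. Vldlr, a lipoprotein receptor, stood at 8.36 untreated, 8.11 with IL17A, 9.37 with medium and 9.01 with both, and was 2.02-fold higher with medium than untreated. With both agents Slc7a11 was 2.11-fold higher than untreated.

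The authors' deposited table of probes higher with IL17A than untreated holds 861 probe IDs, and 0 of them belong to the 31 genes. The authors' deposited table of probes higher with IL17A than with IL17A plus medium holds 1193 probe IDs, again with 0 of the 31 genes. Each table covers a small part of the 43379 spots per array, and the 31 genes had only 56 probes. A count of 0 therefore says little about these genes. Of the 5 pathway lists, Atf3, Cdnf, Cebpb, Cth, Slc7a11 and Stc2 are in the first of the authors' deposited tables, and Atf3 and Cbs in the second.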

How the data were processed

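Total RNA was labelled with Cy3 per the labels' protocols. Per the file headers, arrays were read with Feature Extraction 12.1.1.1, and probes are placed on mm9. Signals deposited as intensity are linear, background-corrected by the software within each array and not yet normalized between arrays. Spot flags (well above background, saturated, outlier) were deposited as a score of 0 or 1. Quantile normalization is named in the series design text, and R 3.5.1 in the submitters' processing notes. The thresholds behind the 2 authors' deposited probe lists are not given in the sources used here.

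Control and outlier-marked spots were left out, log2 intensities were quantile normalized with limma 3.58.1 (R 4.3.3), spots of a probe were averaged, and each gene was represented by its brightest probe on average. A gene was called higher or lower at 2-fold or more with the brighter side well above background, and a dim side was raised to the lowest signal well above background on that array. Medians used genes well above background on both arrays. No test was run. An additive fit over the 4 arrays, which would leave little residual freedom and assume that IL17A acts alike with and without medium, was left out. The steps from the choice of probe to the differences and 2-fold calls were tested on simulated data. Normalization, spot averaging and genes dim on 1 side only were not simulated. Python 3.11.15, pandas 2.3.3 and NumPy 2.4.6 did the rest. The number of arrays limits the precision. The genes, lists and rules were chosen with earlier results of these data known. All 31 genes were named, and from each pathway list the text takes some of the genes past 2-fold or at the extremes, with those past 1.5-fold added after their values were seen. Promoters came from RefSeq. Protein sequences were not analysed here.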

Additional observations from a re-analysis of the deposited data

Results flagged for a closer look

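Trib3 differed with IL17A in opposite directions without and with ADSC medium, by 0.20 and −0.13, each more than 2 technical SDs from 0. The difference between the 2 differences was −0.33. With 1 array per group this difference was not tested. Its second probe gave 0.43 and −0.24, the same directions.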

How the results depend on the processing

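The alternatives were scaling to the 75th percentile, normexp background correction with an offset of 50, the mean of a gene's probes, no filter on dim probes, RefSeq probes only, and a 1.5-fold threshold. Of 95 recomputed values, 88 stayed within 1 technical SD or, for counts, within 1.5 times, and 7 moved. All 6 medians over the 31 genes, the difference of differences included, were among the 88. The tolerance of 1 technical SD (0.06) was about as large as most of these medians. Such a median could reach 0 and still count as unmoved. The median for medium against untreated went from −0.07 to −0.02 under scaling to the 75th percentile. The median difference of differences went from −0.02 to 0.01 with normexp. Many of the 88 were counts of 0 that stayed 0. With normexp, 0 genes were lower with both agents than untreated, and Chac1 differed by −0.82. Normexp also left fewer 2-fold calls over all genes, 97 higher and 66 lower with IL17A against untreated. Without the filter on dim probes, 1 gene (Derl3) was lower with IL17A and 1 with medium than untreated. At 1.5-fold, 1 gene was lower with medium than untreated, 1 with medium added to IL17A, and 2 with both agents against untreated. These 1.5-fold counts use the brightest probe of each gene. The cause of these moves was not tested beyond the change of setting. The IL17A differences were taken within each slide, and a fit over all 4 arrays with the slide as a block was not run. Differences under about 0.2 lie within the spread between probes of a gene, and genes not well above background have no measured difference.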
